A study of Mus musculus with 12 samples.

Results

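The 10 genes described here encode the ligands, latency proteins and receptors of transforming growth factor-beta (TGF-beta). They are the 3 ligands Tgfb1, Tgfb2 and Tgfb3, the 4 latent TGF-beta binding proteins Ltbp1, Ltbp2, Ltbp3 and Ltbp4, and the 3 receptors Tgfbr1, Tgfbr2 and Tgfbr3. They were chosen by name after Ensembl identifiers had been matched to mouse symbols. The rule itself used no measured value, but earlier results of these data were known when the members were chosen. They are 10 of the 49585 genes counted, and all 10 were among the 18648 genes tested, which reached at least 0.5 CPM in at least 1 library, where CPM, the usual depth-scaled unit, is the count scaled to a common library size. RNA-seq had been performed on 4 populations sorted from the bone marrow of wild-type male C57BL/6 mice aged 8 to 10 weeks, in steady state, with 3 libraries per population and 2000 cells per library. All sorted cells lacked the blood and endothelial surface proteins CD45, Ter119 and CD31. Itga8+ MSCs were mesenchymal stem cells (MSCs) positive for integrin alpha 8 and Alcam and negative for Sca-1. Itga8-Alcam+ BLCs were bone-lining cells (BLCs) with the same surface proteins except integrin alpha 8, and the labels call them osteoblasts. Sca-1+ MSCs were positive for Sca-1 and negative for Alcam, and CD51+CD140a+ MSCs carried integrin alpha v and the platelet-derived growth factor receptor alpha. The first 3 populations were released from bone fragments with collagenase and the fourth from flushed marrow with Accumax, so that cell handling and population cannot be told apart in comparisons with CD51+CD140a+ MSCs. No source states that libraries of a population came from separate mice, so that p-values measure only the spread between these samples, which may be technical. The comparisons ask how the Itga8+ MSCs differ from the other mesenchymal populations in TGF-beta components.

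TGF-beta is secreted in an inactive form. Proteases of the furin family cut the precursor into the mature growth factor and a latency-associated peptide, which stays wrapped around the growth factor, and a latent TGF-beta binding protein ties this complex to fibrillin and fibronectin in the matrix. Integrins that recognise the residues Arg-Gly-Asp in the latency peptide can release the growth factor, which then binds the kinases encoded by Tgfbr2 and Tgfbr1. In bone marrow, TGF-beta is known for holding haematopoietic stem cells in quiescence and for linking bone resorption to bone formation.

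Because 3 of the 4 populations were sorted by the presence or absence of an integrin alpha chain whose dimers recognise Arg-Gly-Asp, the ligand codons for these residues are shown first. The motif was an Arg codon (CGN, AGA or AGG), a Gly codon (GGN) and an Asp codon (GAC or GAT) in the reading frame. It was searched on the coding strand of 1 transcript per gene, and 1566 of 21747 coding genes (7.2%) held it. It was found once in Tgfb1, at codon 244 of 390, and once in Tgfb3, at codon 261 of 412, and these letters were absent from the 442 codons of Tgfb2 and from the coding sequences of the other 7 members. The bases lie at chr7:25696995-25697168 on the plus strand, across exons 4 and 5 of the 7 exons of Tgfb1, and at chr12:86062147-86062191 on the minus strand, in exon 5 of 7 of Tgfb3. Capitals mark the Arg-Gly-Asp codons, written 5′ to 3′ on the coding strand from GENCODE M21 transcripts of GRCm38 (mm10):
Tgfb1, Arg-Gly-Asp codons: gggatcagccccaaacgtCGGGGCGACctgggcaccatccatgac
Tgfb3, Arg-Gly-Asp codons: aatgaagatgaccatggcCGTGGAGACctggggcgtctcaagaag

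The codons at which furin-type proteases part the latency peptide from the growth factor are shown for all 3 ligands, a cut that all 3 precursors are known to undergo. The motif was an Arg codon, any codon, a Lys (AAA or AAG) or Arg codon and an Arg codon, and 5244 of 21747 coding genes (24.1%) held it in frame. Each ligand held it once, at codon 275 in Tgfb1 (chr7:25697217-25697264, plus strand, exon 5), codon 327 in Tgfb2 (chr1:186630618-186630665, minus strand, exon 6 of 8) and codon 297 in Tgfb3 (chr12:86062036-86062083, minus strand, exon 5). Capitals mark these 4 codons:
Tgfb1, cleavage codons: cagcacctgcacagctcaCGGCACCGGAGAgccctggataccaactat
Tgfb2, cleavage codons: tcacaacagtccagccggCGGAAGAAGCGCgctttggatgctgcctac
Tgfb3, cleavage codons: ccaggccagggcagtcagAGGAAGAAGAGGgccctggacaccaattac

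The libraries held 17580677 to 31332475 gene counts, so that 1 count was worth 0.0273 to 0.0599 CPM, and the members had between 101 and 37074 counts per library. Of the sorting markers, Ly6a (Sca-1) was at 611 to 659 CPM in Sca-1+ MSCs and at most 35.7 CPM elsewhere. Pdgfra (CD140a) was at 734 to 1019 CPM in Sca-1+ MSCs, overlapping the 681 to 867 CPM of CD51+CD140a+ MSCs, against 5.35 to 148 CPM in the Alcam+ populations, and Alcam RNA was low throughout, at 1.29 to 5.81 CPM in the Alcam+ populations and at most 0.221 CPM elsewhere. The summed osteoblast markers (8 genes) were at 36803 to 114891 CPM in Itga8-Alcam+ BLCs and at 696 to 7974 CPM in Itga8+ MSCs. They were at 15585 to 19458 CPM in Sca-1+ MSCs and at 8164 to 17366 CPM in CD51+CD140a+ MSCs. Col1a1 alone was at 16651 to 107122 CPM in Itga8-Alcam+ BLCs. By median, each of the 8 except Ibsp was highest in Itga8-Alcam+ BLCs. Ibsp was at 2627 to 4680 CPM there, against 6817 to 16043 CPM in CD51+CD140a+ MSCs. The libraries of the Alcam+ populations stood apart from one another. The median log2 deviation of 3603 long genes (exons of 6000 bases or more) minus that of 1485 short genes (under 2000 bases) was -0.23, -2.27 and 0.46 in Itga8+ replicates 1, 2 and 3 and -0.60, 0.40 and -1.55 in Itga8-Alcam+ replicates 1, 2 and 3, against 0.36 to 0.90 in the other 6 libraries. The summed cartilage markers (5 genes) ran in the same order, at 70082, 10693 and 116100 CPM in the Itga8+ libraries and 41942, 72550 and 9918 CPM in the Itga8-Alcam+ libraries, and were at 524 to 1586 CPM elsewhere. Summed myeloid markers (8 genes) were highest in Itga8+ replicate 2, at 11831 CPM against 2307 to 6497 CPM in the other 5 Alcam+ libraries and 883 to 1728 CPM elsewhere, and so were summed erythroid markers (6 genes), at 1414 CPM against 116 to 401 CPM. Summed immediate early and stress markers (8 genes) were at 15742 to 21566 CPM in CD51+CD140a+ libraries and at 7709 to 11177 CPM elsewhere. The part of cell handling in them was not tested.

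Differences between populations were read across the 6 possible pairs. Of the 60 differences (10 members in 6 comparisons), 25 were called, that is, they passed a false discovery rate (FDR) of 0.1 and a fold of 2 in edgeR's quasi-likelihood test. Between Itga8+ MSCs and Itga8-Alcam+ BLCs 1 member was called, Ltbp2, which was higher in Itga8+ MSCs, where 3.82% of all genes were called (1.66% higher and 2.16% lower). In Itga8+ over Sca-1+ MSCs, 3 members were called, all lower, beside 21.7% of all genes (12.9% higher and 8.89% lower). In Itga8+ over CD51+CD140a+ MSCs, 3 members were higher and 3 lower, beside 35.6% of all genes (21.2% higher and 14.3% lower). In Itga8-Alcam+ BLCs over Sca-1+ MSCs, 7 members were called, all lower, beside 26.4% of all genes (14.5% higher and 11.9% lower). In Itga8-Alcam+ BLCs over CD51+CD140a+ MSCs, 2 members were higher and 3 lower, beside 35.3% of all genes (20.4% higher and 14.9% lower). In Sca-1+ over CD51+CD140a+ MSCs, 3 members were called, all higher, beside 20.5% of all genes (11.2% higher and 9.3% lower). The libraries of a pair did not overlap in 0, 5, 5, 9, 6 and 8 of the 10 members in these 6 comparisons in the order given, and in 14.2%, 37.6%, 44.4%, 45.7%, 49.8% and 45.9% of all genes. The median log2 fold change over the 10 members in these 6 comparisons, in the order given, was 0.92, -0.91, 0.95, -1.95, -0.36 and 1.06, and over all genes tested it was 0.08, 0.16, 0.18, 0.12, 0.09 and -0.0025. Beside the 12 fits without 1 library each, 10 alternative fits used another tool (DESeq2 or limma-trend), scaling, filter or block, the 6 compared libraries alone, or one of a pair of settings added after the data were seen (the trend with gene length removed, and 1 low library of each Alcam+ population left out). Comparisons that share a population share its libraries and are not independent. In these bulk samples, fewer cells of a type and less RNA per cell cannot be told apart.

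**Figure D1:**
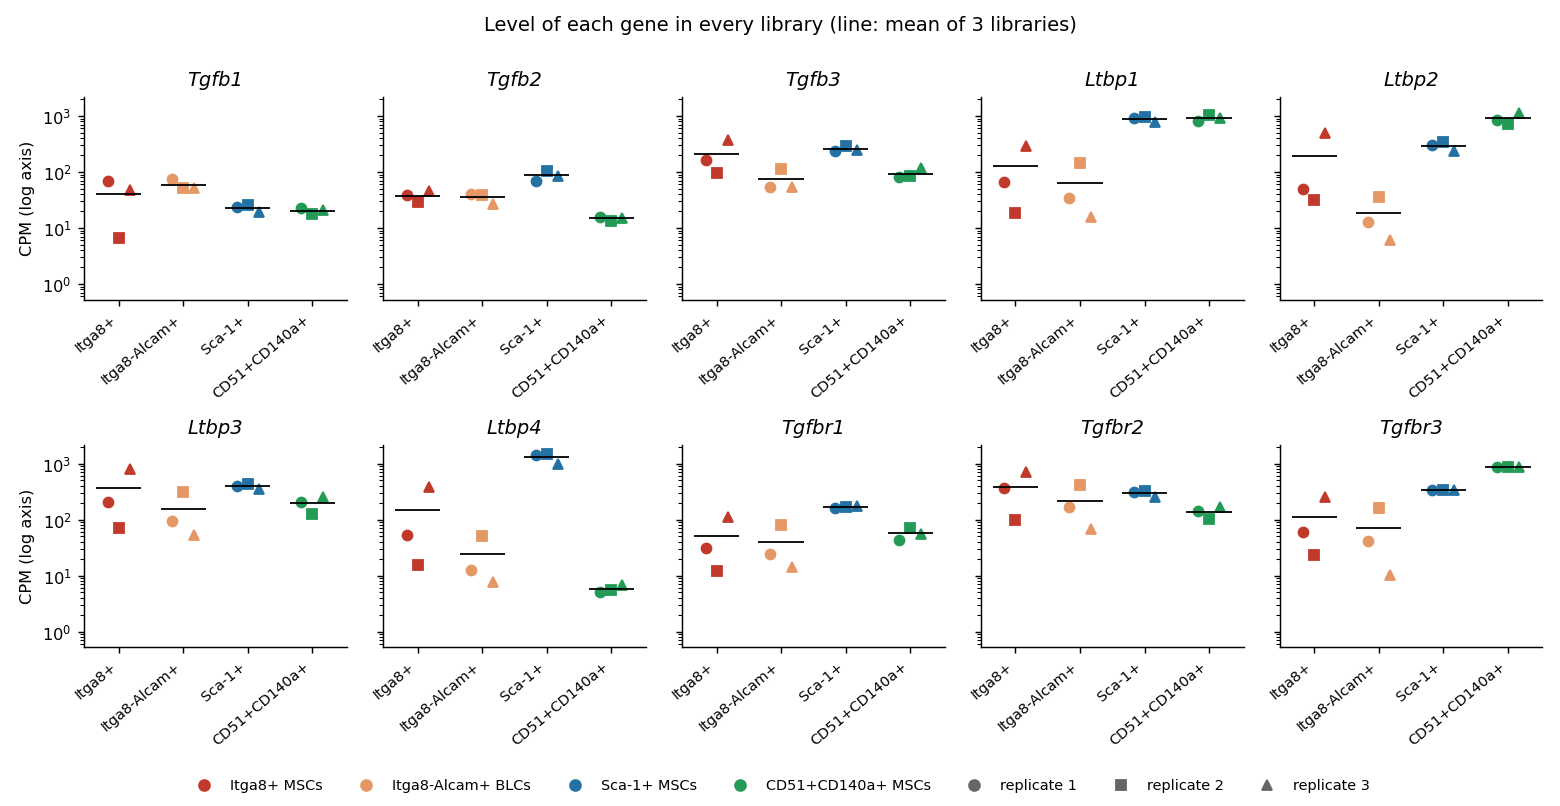
Level of each of the 10 genes in CPM (log axis) in the 12 libraries, by population, with 1 point per library and a line at the mean of 3. Ltbp4 lies between 994 and 1490 CPM in Sca-1+ MSCs and between 5.08 and 6.80 CPM in CD51+CD140a+ MSCs, while the points of the Itga8+ MSCs and Itga8-Alcam+ BLCs are widely spread for the binding proteins and receptors.

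Of the 16 calls that edgeR also made without each of the 12 libraries in turn, 6 concerned ligands, and 5 of these 6 were differences of Tgfb2. Tgfb2 (ENSMUSG00000039239, chr1:186622792-186705989, minus strand) encodes a ligand whose latency peptide lacks Arg-Gly-Asp. It stood at 69.8, 106 and 86.6 CPM in the Sca-1+ replicates 1, 2 and 3, at 38.8, 28.8 and 45.5 CPM in the Itga8+ replicates, at 40.5, 38.8 and 27.3 CPM in the Itga8-Alcam+ replicates, and at 15.9, 13.6 and 14.9 CPM in the CD51+CD140a+ replicates. All Sca-1+ libraries were thus the highest and all CD51+CD140a+ libraries the lowest, with both Alcam+ populations between and overlapping each other. Sca-1+ MSCs exceeded CD51+CD140a+ MSCs 5.90-fold (log2 fold change 2.56 ± 0.30 (SE), n = 3 per population in every comparison, edgeR FDR = 7.9e-05). Itga8+ MSCs lay 2.32-fold below Sca-1+ MSCs (log2 -1.22 ± 0.28, edgeR FDR = 0.0138) and 2.54-fold above CD51+CD140a+ MSCs (log2 1.35 ± 0.28, edgeR FDR = 0.0043). For the Itga8-Alcam+ BLCs, the difference from Sca-1+ MSCs was 2.46-fold (log2 -1.30 ± 0.28, edgeR FDR = 0.0077) and that from CD51+CD140a+ MSCs 2.40-fold (log2 1.26 ± 0.28, edgeR FDR = 0.0060). The last was 1.89-fold and not called when counts were scaled by library totals alone. Both Alcam+ populations differed 1.06-fold in Tgfb2 (edgeR FDR = 0.97), a direction that turned without Itga8+ replicate 3 or without Itga8-Alcam+ replicate 3 (log2 -0.07 in each case).

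Tgfb1 (ENSMUSG00000002603, chr7:25687002-25705077, plus strand), the ligand best known from bone matrix and platelets, was measured at 74.0, 52.5 and 51.2 CPM in Itga8-Alcam+ replicates 1, 2 and 3. It was at 68.4, 6.75 and 47.9 CPM in the Itga8+ replicates. Sca-1+ replicates had 23.3, 25.4 and 19.0 CPM and CD51+CD140a+ replicates 22.5, 18.1 and 21.1 CPM. Apart from Itga8+ replicate 2, which was the lowest of all 12, every library of the Alcam+ populations lay above every library of the other populations. The summed myeloid markers were split in the same way, at 2307 to 11831 CPM in the Alcam+ populations and 883 to 1728 CPM in the others. Itga8+ replicate 2 was the highest in them and the lowest in Tgfb1. Their part in the Tgfb1 levels was not tested. The call for Itga8-Alcam+ BLCs over CD51+CD140a+ MSCs (2.88-fold, log2 1.53 ± 0.58, edgeR FDR = 0.0656) was lost without CD51+CD140a+ replicate 1, 2 or 3 or without Itga8-Alcam+ replicate 1 or 3, at log2 fold changes of 1.33 to 1.62, and with scaling by library totals alone (2.29-fold, edgeR FDR = 0.146). The difference from Sca-1+ MSCs was of similar size (2.63-fold, log2 1.39 ± 0.58) but passed no call (edgeR FDR = 0.107), although it was called without Itga8+ replicate 1 (log2 1.39) or 2 (log2 1.36). It was also called in 5 of the 10 alternative fits, with DESeq2 (FDR = 0.0614), a stricter filter, the 6 libraries alone (edgeR FDR = 0.0098), the length trend removed (edgeR FDR = 0.0534) or both low libraries left out (edgeR FDR = 0.0019). Without Itga8+ replicate 2, the Itga8+ MSCs were 2.55-fold above Sca-1+ MSCs and 2.88-fold above CD51+CD140a+ MSCs and both differences were called (edgeR FDR = 0.0066 and 0.0016), compared with 1.82-fold and 2.00-fold over all 3 replicates, which were not (edgeR FDR = 0.309 and 0.202).

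Tgfb3 (ENSMUSG00000021253, chr12:86056745-86079041, minus strand), the other Arg-Gly-Asp ligand, was at 235, 296 and 252 CPM in Sca-1+ replicates 1, 2 and 3 and at 161, 95.8 and 374 CPM in Itga8+ replicates. It was at 54.6, 113 and 54.2 CPM in Itga8-Alcam+ replicates and at 80.9, 84.8 and 117 CPM in CD51+CD140a+ replicates. Itga8+ libraries overlapped every other population, whereas all Sca-1+ libraries lay above all Itga8-Alcam+ and CD51+CD140a+ libraries. Sca-1+ MSCs were 3.54-fold above Itga8-Alcam+ BLCs (log2 difference of the BLCs -1.82 ± 0.47, edgeR FDR = 0.0171), a call that was kept without each library in turn. They were 2.78-fold above CD51+CD140a+ MSCs (log2 1.47 ± 0.46, edgeR FDR = 0.0474), which was not called without Sca-1+ replicate 2 or CD51+CD140a+ replicate 1 or 2 (log2 1.37 to 1.40). The Itga8+ MSCs were 2.24-fold above CD51+CD140a+ MSCs (log2 1.16 ± 0.46, edgeR FDR = 0.0758), but the call was lost without CD51+CD140a+ replicate 1, 2 or 3 (log2 1.06 to 1.34) and without Itga8+ replicate 3 (log2 0.45). It was also lost with limma-trend, the replicate number as a block or the 6 libraries alone (log2 0.95 to 1.15, FDR = 0.121 to 0.153). Itga8+ MSCs over Itga8-Alcam+ BLCs gave 2.85-fold (log2 1.51 ± 0.46, edgeR FDR = 0.141), which was called without Itga8+ replicate 2 (log2 1.88) or Itga8-Alcam+ replicate 2 (log2 1.97) and fell to log2 0.80 without Itga8+ replicate 3. It was called in 3 of the 10 alternative fits. Itga8+ and Sca-1+ MSCs were not called different (1.24-fold, edgeR FDR = 0.659), with a log2 fold change of 0.02 without Itga8+ replicate 2 and of -1.06, then called, without Itga8+ replicate 3. Of the exon bases of Tgfb3, 12.4% are also exon bases of genes on the opposite strand (Gm37804 and Gm48008), and reads of these could not be told apart because the library kit does not mark strand.

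To compare levels between genes, counts were also divided by the summed exon length of each gene and scaled to the same sum in every library (TPM, the length-scaled counterpart of CPM). On this scale Tgfb3 was over 50% of the ligand TPM in 11 of 12 libraries, a count that depends on the length used. With the length of 1 coding transcript per gene, an alternative added after the data were seen, it was 9 of 12. In Itga8-Alcam+ replicates 1 and 3 Tgfb1 then led instead, at 55.1% and 49.6% beside 26.1% and 33.8% for Tgfb3. The shares of a class sum to 100% in each library, so that a shift of 1 member moves the others and contrasts within a class are not separate results. The Tgfb3 share of the summed ligand TPM was 79.8% ± 0.89 (SD, n = 3) in Sca-1+ MSCs, 80.4% ± 3.41 for CD51+CD140a+ MSCs, 79.4% ± 8.41 for the Itga8+ MSCs and only 53.5% ± 11.8 for Itga8-Alcam+ BLCs. All Itga8-Alcam+ libraries (42.7%, 66.1% and 51.9%) lay below all other libraries (70.1% to 86.4%). Their Tgfb1 share was the highest in turn, at 38.8%, 20.7% and 32.9%, against 20.01%, 3.87% and 7.42% in the Itga8+ libraries, 4.05% to 5.36% in the Sca-1+ libraries and 10.2% to 14.4% in the CD51+CD140a+ libraries. Each of these contrasts without overlap reached the smallest p that an exact permutation test of 3 against 3 libraries can give (p = 0.1, two-sided, 0.2 after Benjamini-Hochberg adjustment over the 18 ligand tests), so that the design cannot pass 0.05. The Tgfb2 share was 15.5% ± 1.37 in Sca-1+ MSCs, 15.7% ± 2.63 in Itga8-Alcam+ BLCs, 10.1% ± 4.12 in the Itga8+ libraries and 7.56% ± 1.29 in CD51+CD140a+ MSCs.

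Among the latency proteins, Ltbp4 (ENSMUSG00000040488, chr7:27305136-27337692, minus strand) varied most between populations. It encodes a binding protein known for its part in elastic fibre assembly. It stood at 1421, 1490 and 994 CPM in Sca-1+ replicates 1, 2 and 3 and at 5.08, 5.47 and 6.80 CPM in CD51+CD140a+ replicates. The Itga8+ replicates had 53.8, 15.4 and 384 CPM, and the Itga8-Alcam+ replicates 12.45, 51.5 and 7.61 CPM. All 9 libraries released from bone fragments lay above the 3 from flushed marrow, the Sca-1+ libraries lay above all others, and both Alcam+ populations overlapped. Sca-1+ MSCs were 225-fold above CD51+CD140a+ MSCs (log2 7.81 ± 1.23, edgeR FDR = 0.00076), with values of 7.71 to 7.98 without each library in turn. Itga8+ MSCs were 26.1-fold above CD51+CD140a+ MSCs (log2 4.71 ± 1.07, edgeR FDR = 0.0065), and 6.03-fold above them without Itga8+ replicate 3. Itga8-Alcam+ BLCs were 54.5-fold below Sca-1+ MSCs (log2 -5.77 ± 1.12, edgeR FDR = 0.0041), and 133-fold below them without Itga8-Alcam+ replicate 2. Itga8+ MSCs were 8.62-fold below Sca-1+ MSCs (log2 -3.11 ± 0.99, edgeR FDR = 0.0534), a call lost without Itga8+ replicate 1 or Sca-1+ replicate 1 or 2 (log2 -3.04 to -2.70) or with the 6 libraries alone (edgeR FDR = 0.104), and at log2 -5.26 without Itga8+ replicate 3. Itga8+ MSCs over Itga8-Alcam+ BLCs gave 6.32-fold (log2 2.66 ± 0.97, edgeR FDR = 0.253), which was called without Itga8+ replicate 2 (log2 3.22), moved to log2 3.93 without Itga8-Alcam+ replicate 2 and fell to log2 0.55 without Itga8+ replicate 3. The 4.13-fold difference of Itga8-Alcam+ BLCs over CD51+CD140a+ MSCs (log2 2.05 ± 0.95, edgeR FDR = 0.125) was called without Itga8+ replicate 2 or 3 (log2 2.05 and 2.04) and was log2 0.79 without Itga8-Alcam+ replicate 2. It was called in 5 of the 10 alternative fits, and that between both Alcam+ populations in 1.

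Ltbp1 (ENSMUSG00000001870, chr17:75005568-75392512, plus strand), the founding member of the family, divided the Alcam+ populations from the others. Sca-1+ replicates 1, 2 and 3 had 916, 966 and 773 CPM and CD51+CD140a+ replicates 832, 1062 and 932 CPM, whereas Itga8+ replicates had 65.9, 18.3 and 297 CPM and Itga8-Alcam+ replicates 34.8, 144 and 15.6 CPM. No library of an Alcam+ population reached any library of the others. Itga8+ MSCs were 6.96-fold below Sca-1+ MSCs (log2 -2.80 ± 0.91, edgeR FDR = 0.0588) and 7.41-fold below CD51+CD140a+ MSCs (log2 -2.89 ± 0.92, edgeR FDR = 0.0338). The first of these calls was lost without Itga8+ replicate 1 or any Sca-1+ replicate (log2 -2.89 to -2.49) and with the replicate number as a block (log2 -2.90, edgeR FDR = 0.108). Without Itga8+ replicate 3 both moved, to log2 -4.42 and -4.47. Itga8-Alcam+ BLCs were 13.6-fold below Sca-1+ MSCs (log2 -3.77 ± 0.95, edgeR FDR = 0.0160) and 14.5-fold below CD51+CD140a+ MSCs (log2 -3.86 ± 0.96, edgeR FDR = 0.0101), and without Itga8-Alcam+ replicate 2 these were log2 -5.17 and -5.22. Sca-1+ and CD51+CD140a+ MSCs differed 1.07-fold (edgeR FDR = 0.981), and both Alcam+ populations 1.96-fold (log2 0.97 ± 0.86, edgeR FDR = 0.771), a difference that turned to log2 -0.61 without Itga8+ replicate 3.

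Ltbp2 (ENSMUSG00000002020, chr12:84783212-84876532, minus strand), whose product binds fibrillin but is thought not to bind latent TGF-beta, was the only member called between Itga8+ MSCs and Itga8-Alcam+ BLCs. It was at 862, 725 and 1146 CPM in CD51+CD140a+ replicates 1, 2 and 3 and at 304, 344 and 238 CPM in Sca-1+ replicates. Itga8+ replicates had 49.5, 32.2 and 499 CPM and Itga8-Alcam+ replicates 12.9, 36.0 and 6.05 CPM. The Itga8-Alcam+ libraries were below all Sca-1+ and CD51+CD140a+ libraries, and Itga8+ replicate 3 stood above the other replicates of its population. The 10.6-fold difference of Itga8+ MSCs over Itga8-Alcam+ BLCs (log2 3.40 ± 0.95, edgeR FDR = 0.0967) held in libraries that overlapped, with 32.2 CPM in Itga8+ replicate 2 and 36.0 CPM in Itga8-Alcam+ replicate 2. It fell to 2.23-fold and was not called without Itga8+ replicate 3 (edgeR FDR = 0.383), and it was also lost without Itga8-Alcam+ replicate 1 or 3 (9.34-fold and 7.99-fold) and without any 1 library of the Sca-1+ or CD51+CD140a+ MSCs (log2 3.40), while without Itga8-Alcam+ replicate 2 it was log2 4.37. Of the 10 alternative fits, 7 called it, among them DESeq2 (FDR = 0.0020), library totals alone (edgeR FDR = 0.0526), the length trend removed (edgeR FDR = 0.0308) and both low libraries left out (edgeR FDR = 0.0735). It was not called by limma-trend (FDR = 0.135), with the replicate number as a block (edgeR FDR = 0.373) or with the 6 libraries alone (edgeR FDR = 0.376). Itga8-Alcam+ BLCs were 16.1-fold below Sca-1+ MSCs (log2 -4.01 ± 0.97, edgeR FDR = 0.0131) and 49.6-fold below CD51+CD140a+ MSCs (log2 -5.63 ± 1.05, edgeR FDR = 0.0019), and 31.9-fold and 95.9-fold below them without Itga8-Alcam+ replicate 2. Itga8+ MSCs were 4.71-fold below CD51+CD140a+ MSCs (log2 -2.23 ± 0.90, edgeR FDR = 0.0804), a call lost without Itga8+ replicate 1 or 2, Itga8-Alcam+ replicate 1, Sca-1+ replicate 1 or 2 or any CD51+CD140a+ replicate (log2 -2.38 to -1.71) or with the 6 libraries alone (edgeR FDR = 0.14), and at log2 -4.48 without Itga8+ replicate 3. Against Sca-1+ MSCs they were 1.53-fold lower (edgeR FDR = 0.650), or 7.41-fold lower and called without Itga8+ replicate 3. Sca-1+ MSCs were 3.08-fold below CD51+CD140a+ MSCs (edgeR FDR = 0.267), which was called without Itga8+ replicate 3 (3.01-fold, edgeR FDR = 0.0572). Of the exon bases of Ltbp2, 9.34% overlap D030025P21Rik on the opposite strand.

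Ltbp3 (ENSMUSG00000024940, chr19:5740904-5758532, plus strand), a carrier of latent TGF-beta needed for normal skeletal growth, was in no called difference in the fit of all 12 libraries. It was at 397, 434 and 355 CPM in Sca-1+ replicates 1, 2 and 3 and at 204, 125 and 256 CPM in CD51+CD140a+ replicates. Itga8+ replicates had 208, 71.4 and 815 CPM and Itga8-Alcam+ replicates 94.3, 308 and 52.5 CPM. Sca-1+ libraries lay above all CD51+CD140a+ and Itga8-Alcam+ libraries, and the Itga8+ libraries spanned the range of all the others apart from Itga8-Alcam+ replicate 3. Of its 6 differences, that of Itga8-Alcam+ BLCs below Sca-1+ MSCs (2.61-fold, log2 -1.38 ± 0.77, edgeR FDR = 0.224) was called without Itga8-Alcam+ replicate 2 (log2 -2.47). In 1 of the 10 alternative fits each, Ltbp3 was called in Itga8-Alcam+ BLCs below Sca-1+ MSCs, in Sca-1+ over CD51+CD140a+ MSCs and in Itga8+ over CD51+CD140a+ MSCs.

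Within the summed TPM of the 4 binding proteins, the leading member was Ltbp4 in Sca-1+ MSCs, Ltbp3 in both Alcam+ populations and either Ltbp1 or Ltbp2 in CD51+CD140a+ MSCs. Ltbp4 in Sca-1+ MSCs stood at 56.9%, 56.1% and 52.3% of the LTBP TPM, compared with 15.0% to 25.0% in the Itga8+ libraries, 11.2% to 13.3% in Itga8-Alcam+ BLCs and 0.381% to 0.418% in CD51+CD140a+ MSCs. Ltbp3 stood at 60.6%, 56.8% and 63.1% in Itga8-Alcam+ BLCs and at 52.8%, 49.5% and 37.8% in Itga8+ MSCs, and took 6.82% to 13.3% in the other 6 libraries. In CD51+CD140a+ MSCs the leading member was Ltbp2 in replicates 1 and 3 (51.0% and 54.6%) and Ltbp1 in replicate 2 (49.0%, beside 43.7% for Ltbp2). With coding transcript length Ltbp1 led in replicate 1 as well (44.3%, beside 42.3% for Ltbp2). The Itga8+ libraries spanned 15.4 to 384 CPM of Ltbp4 but 15.0% to 25.0% in share, and the Itga8-Alcam+ libraries 52.5 to 308 CPM of Ltbp3 but 56.8% to 63.1%. Between Itga8+ MSCs and Itga8-Alcam+ BLCs the shares of all 4 binding proteins did not overlap, with Ltbp2 at 21.4% ± 6.52 against 8.21% ± 0.94, Ltbp4 at 19.7% ± 4.996 against 12.46% ± 1.11, Ltbp3 at 46.7% ± 7.89 against 60.2% ± 3.21 and Ltbp1 at 12.2% ± 1.76 against 19.2% ± 3.31 (SD, n = 3). In all, 23 of 24 share contrasts of binding proteins, which are tied through their sum, had no overlap (as levels in CPM, 14.2% to 49.8% of all genes had none, by comparison), each at an exact two-sided permutation p of 0.1 (0.104 adjusted over 24 tests), the exception being Ltbp1 in Itga8-Alcam+ BLCs against Sca-1+ MSCs (exact p = 0.3).

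**Figure D2:**
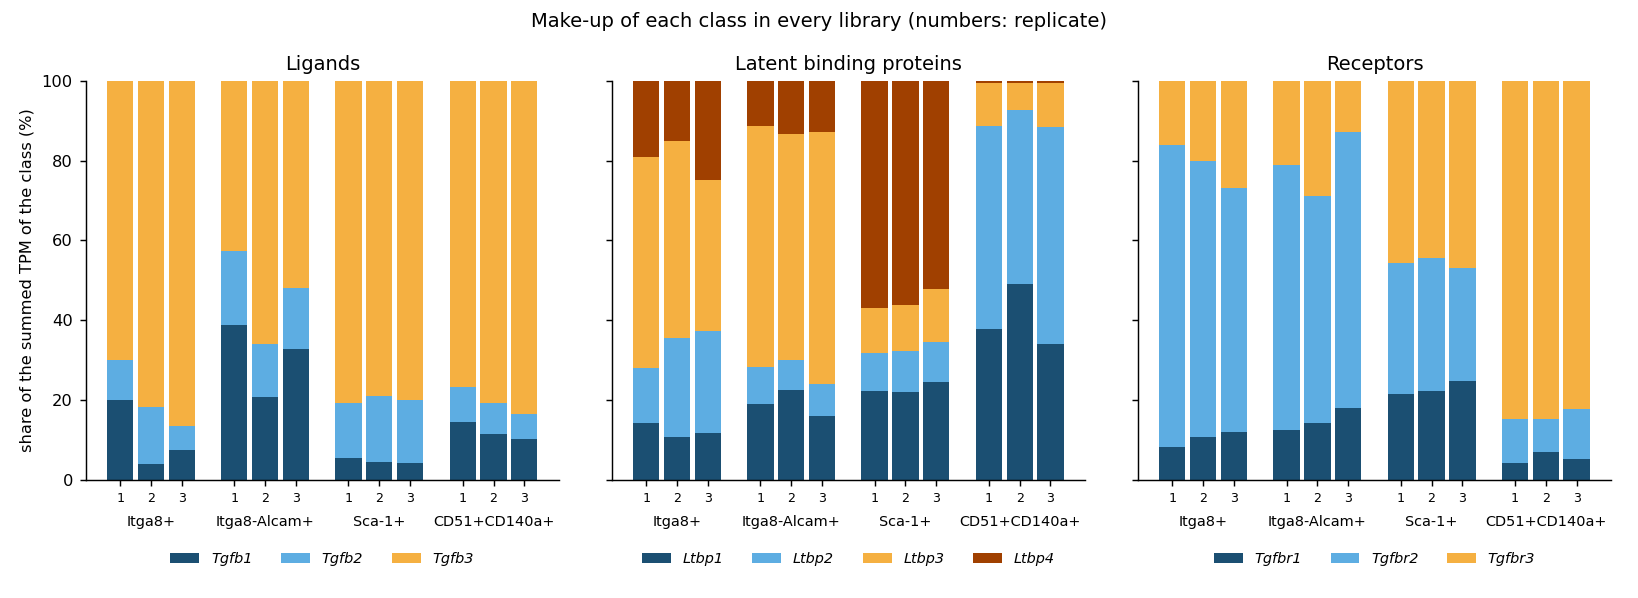
Share of each gene in the summed TPM of the ligands, binding proteins and receptors (stacked to 100%) in each of the 12 libraries, grouped by population. Ltbp4 fills 52.3% to 56.9% of the binding proteins in Sca-1+ MSCs and Tgfbr3 82.3% to 84.9% of the receptors in CD51+CD140a+ MSCs, while the Tgfb1 share of the ligands spans 3.87% to 20.01% in Itga8+ MSCs.

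The receptor kinases Tgfbr2 and Tgfbr1 act in sequence, and Tgfbr3 encodes betaglycan, a coreceptor without kinase activity that presents the ligand and is known to be needed most by the Tgfb2 product. Tgfbr3 (ENSMUSG00000029287, chr5:107106570-107289629, minus strand) was at 873, 868 and 871 CPM in CD51+CD140a+ replicates 1, 2 and 3 and at 344, 335 and 338 CPM in Sca-1+ replicates. Itga8+ replicates had 60.3, 22.9 and 248 CPM and Itga8-Alcam+ replicates 41.7, 164 and 10.1 CPM. CD51+CD140a+ libraries were above all others, Sca-1+ libraries above all libraries of the Alcam+ populations, and the Alcam+ populations overlapped. Itga8+ MSCs were 7.88-fold below CD51+CD140a+ MSCs (log2 -2.98 ± 0.92, edgeR FDR = 0.0310), and log2 -4.38 without Itga8+ replicate 3. Itga8-Alcam+ BLCs were 12.1-fold below CD51+CD140a+ MSCs (log2 -3.60 ± 0.95, edgeR FDR = 0.0139), and log2 -5.07 without Itga8-Alcam+ replicate 2. Their 4.72-fold difference from Sca-1+ MSCs (log2 -2.24 ± 0.90, edgeR FDR = 0.0967) was called in 3 of the 12 fits without 1 library, those without Itga8+ replicate 2 or 3 or Itga8-Alcam+ replicate 2, where the last gave log2 -3.75, and the other 9 gave log2 -2.25 to -1.73. It was not called with the replicate number as a block (edgeR FDR = 0.148). Itga8+ MSCs below Sca-1+ MSCs (3.07-fold, edgeR FDR = 0.220) was called without Itga8+ replicate 3 (log2 -3.06). Sca-1+ MSCs were 2.57-fold below CD51+CD140a+ MSCs (log2 -1.36 ± 0.87, edgeR FDR = 0.361) in the fit of all 12 libraries. DESeq2 gave no adjusted p-value for Tgfbr3 in any of the 6 comparisons, so that its 3 edgeR calls could not be checked with that tool, whose fold changes over CD51+CD140a+ MSCs were log2 -2.96 for Itga8+ MSCs and -3.60 for Itga8-Alcam+ BLCs. Of the exon bases of Tgfbr3, 4.54% are shared with Gm43422 on the same strand.

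Tgfbr1 (ENSMUSG00000007613, chr4:47353222-47414931, plus strand), the type I kinase that phosphorylates Smad2 and Smad3, was at 161, 168 and 177 CPM in Sca-1+ replicates 1, 2 and 3 and at 43.0, 71.5 and 55.8 CPM in CD51+CD140a+ replicates. Itga8+ replicates had 30.8, 12.3 and 110 CPM and Itga8-Alcam+ replicates 24.4, 80.8 and 14.3 CPM. Sca-1+ libraries lay above all other libraries, and the other populations overlapped one another. Itga8-Alcam+ BLCs were 4.22-fold below Sca-1+ MSCs (log2 -2.08 ± 0.74, edgeR FDR = 0.0651), a call lost without Itga8-Alcam+ replicate 1 or 3 or any Sca-1+ replicate (log2 -2.11 to -1.68), and log2 -3.16 without Itga8-Alcam+ replicate 2. Itga8+ MSCs below Sca-1+ MSCs (3.30-fold, log2 -1.72 ± 0.73, edgeR FDR = 0.127) was called without Itga8+ replicate 3 (7.99-fold) or Itga8-Alcam+ replicate 2 (log2 -1.75). Sca-1+ over CD51+CD140a+ MSCs (2.96-fold, log2 1.57 ± 0.73, edgeR FDR = 0.184) was called without Itga8+ replicate 2 or 3 (log2 1.61 in each case). Each of these last 2 differences was called in 3 of the 10 alternative fits.

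Tgfbr2 (ENSMUSG00000032440, chr9:116084293-116175360, minus strand), the type II kinase that binds the ligand first, was in no called difference in the fit of all 12 libraries. Itga8+ replicates 1, 2 and 3 had 359, 99.3 and 709 CPM, Itga8-Alcam+ replicates 165, 406 and 68.9 CPM, Sca-1+ replicates 310, 317 and 256 CPM and CD51+CD140a+ replicates 143, 104 and 165 CPM. The Sca-1+ libraries lay above the CD51+CD140a+ libraries, and all other pairs of populations overlapped. The difference of Itga8+ over CD51+CD140a+ MSCs (2.83-fold, log2 1.503 ± 0.66, edgeR FDR = 0.105) was called without Itga8+ replicate 2 (log2 1.98) or Itga8-Alcam+ replicate 2 or 3 (log2 1.52) and was log2 0.75 without Itga8+ replicate 3. It was called in 5 of the 10 alternative fits.

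On the TPM scale the leading receptor changed between populations. Tgfbr2 made up 68.8% ± 7.33 (SD, n = 3) of the receptor TPM in the Itga8+ libraries and 64.3% ± 6.44 in Itga8-Alcam+ BLCs, against 31.6% ± 2.78 in the Sca-1+ libraries and 10.6% ± 2.21 in CD51+CD140a+ MSCs. Tgfbr3 made up 84.0% ± 1.46 in the CD51+CD140a+ libraries, 45.7% ± 1.34 in Sca-1+ MSCs, 20.9% ± 5.51 in the Itga8+ libraries and 20.8% ± 8.04 in Itga8-Alcam+ BLCs. Tgfbr1 took 22.7% ± 1.68 in Sca-1+ MSCs, 14.9% ± 2.89 in Itga8-Alcam+ BLCs, 10.3% ± 1.91 in the Itga8+ libraries and 5.49% ± 1.42 in CD51+CD140a+ MSCs. Of 18 share contrasts, again tied through their sum, 16 had no overlap (exact two-sided permutation p = 0.1, adjusted p = 0.113), and those that overlapped were Tgfbr2 and Tgfbr3 between Itga8+ MSCs and Itga8-Alcam+ BLCs. As levels in CPM, 14.2% to 49.8% of all genes had no overlap, by comparison. In a single library, Tgfbr2 TPM was 5.14 to 9.29 times Tgfbr1 TPM in Itga8+ MSCs, 3.84 to 5.38 times in Itga8-Alcam+ BLCs, 1.15 to 1.54 times in Sca-1+ MSCs and 1.16 to 2.65 times in CD51+CD140a+ MSCs. Tgfbr3 TPM was 6.61 to 10.4 times Tgfbr2 TPM in CD51+CD140a+ MSCs, 1.32 to 1.65 times in Sca-1+ MSCs and 0.183 to 0.504 times in the 6 libraries of the Alcam+ populations.

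**Figure D3:**
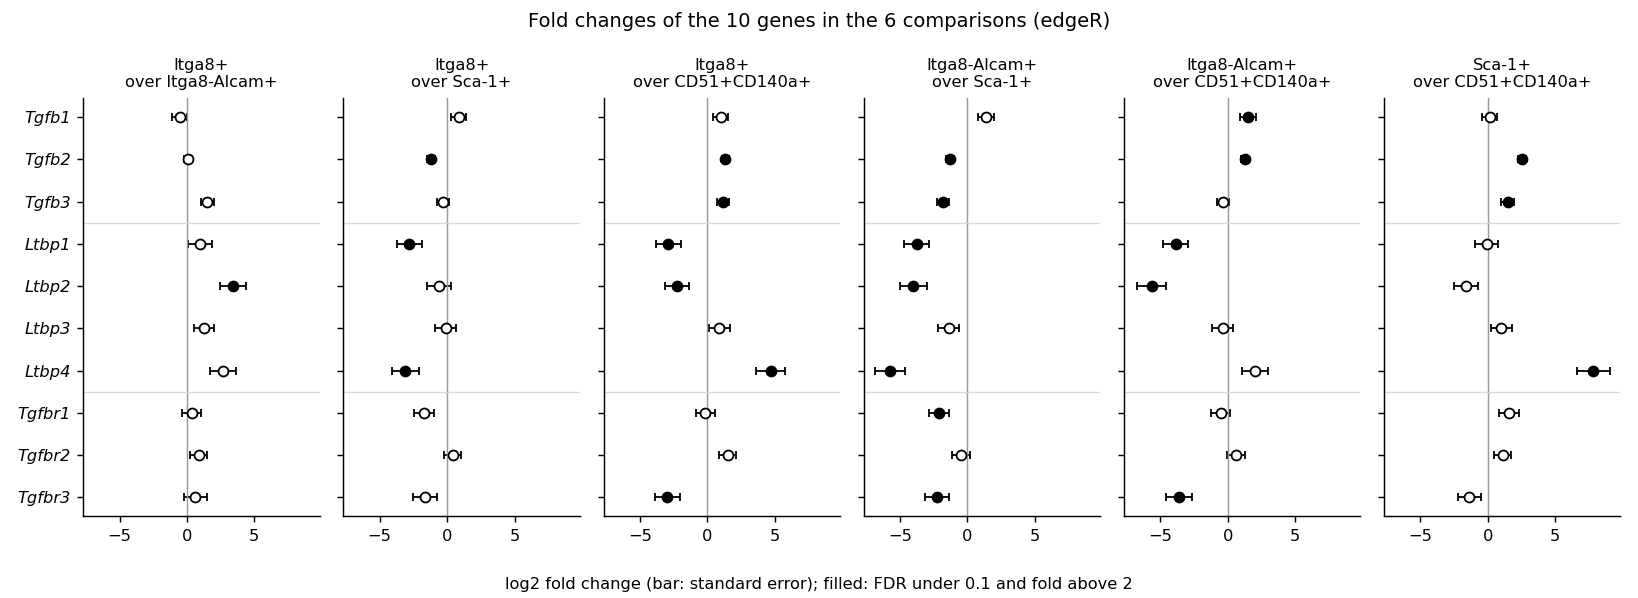
Log2 fold change of each gene in the 6 comparisons (points, with bars of 1 standard error; filled where called by edgeR at an FDR under 0.1 and a fold above 2). The largest is Ltbp4 in Sca-1+ over CD51+CD140a+ MSCs (7.81), and 1 gene, Ltbp2, is filled in Itga8+ MSCs over Itga8-Alcam+ BLCs.

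Sca-1+ and CD51+CD140a+ libraries differed without overlap in 8 of 10 members (45.9% of all genes), yet the fit of all 12 libraries called 3. That fit uses 1 estimate of the spread per gene, to which the Alcam+ libraries contribute. When edgeR was fitted to these 6 libraries alone, 8 members were called, and the share of all genes called also rose, from 20.5% to 27.1%. Beside Tgfb2, Tgfb3 and Ltbp4 these were Tgfbr1 (2.94-fold, edgeR FDR = 0.00034), Tgfbr2 (2.13-fold, edgeR FDR = 0.0020) and Ltbp3 (2.01-fold, edgeR FDR = 0.0108), higher in Sca-1+ MSCs, and Ltbp2 (3.10-fold, edgeR FDR = 0.00035) and Tgfbr3 (2.59-fold, edgeR FDR = 2.9e-05), lower in Sca-1+ MSCs. Tgfb1 (1.09-fold, edgeR FDR = 0.642) and Ltbp1 (1.07-fold, edgeR FDR = 0.631) were not called in that fit either. Without the library of each Alcam+ population that was lowest in long genes, Itga8+ replicate 2 and Itga8-Alcam+ replicate 3, 7 members were called, those named except Ltbp3, beside 24.9% of all genes.

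The summed level of each class differed as well. Summed ligand TPM was 327 to 413 in Sca-1+ libraries, 120 to 159 in CD51+CD140a+ libraries, 261, 86.0 and 479 in Itga8+ replicates 1, 2 and 3 and 126, 166 and 70.2 in Itga8-Alcam+ replicates. Summed binding protein TPM was 1071 to 1530 in Sca-1+ libraries, 785 to 989 in CD51+CD140a+ libraries, 167, 39.5 and 891 in Itga8+ replicates and 57.3, 197 and 20.8 in Itga8-Alcam+ replicates. Both populations outside the Alcam+ gate thus held more binding protein RNA than ligand RNA in every library. The summed binding proteins include Ltbp2, whose product is thought not to bind latent TGF-beta. Ltbp2 was 43.7% to 54.6% of that sum in CD51+CD140a+ libraries, 9.62% to 10.2% in Sca-1+ libraries and 7.36% to 25.6% in the Alcam+ libraries. A ratio without Ltbp2 was not computed, so the order of the populations below holds only with Ltbp2 counted. The ratio of summed binding protein TPM to summed ligand TPM was 6.23 to 6.64 in CD51+CD140a+ libraries, 3.16 to 4.48 in Sca-1+ libraries, 0.641, 0.459 and 1.86 in Itga8+ replicates and 0.454, 1.19 and 0.297 in Itga8-Alcam+ replicates. With coding transcript length it was 3.81 to 8.12 in the Sca-1+ and CD51+CD140a+ libraries and 0.315 to 2.40 in the Alcam+ libraries. Within each Alcam+ population the ratio had the order of the long-gene measure, and the binding proteins have longer exons in sum (6463 to 10691 bases) than the ligands (3383 to 5791 bases). With the trend of counts with gene length removed from each library, it was 4.97 to 5.45 in CD51+CD140a+ libraries, 2.70 to 3.79 in Sca-1+ libraries, 0.761, 0.727 and 1.64 in Itga8+ replicates and 0.557, 1.08 and 0.415 in Itga8-Alcam+ replicates. Summed receptor TPM was 605 to 684 in CD51+CD140a+ libraries, 400 to 436 in Sca-1+ libraries, 222, 43.4 and 529 in Itga8+ replicates and 101, 286 and 27.6 in Itga8-Alcam+ replicates. The Alcam+ libraries overlapped each other in all of these sums.

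**Figure D4:**
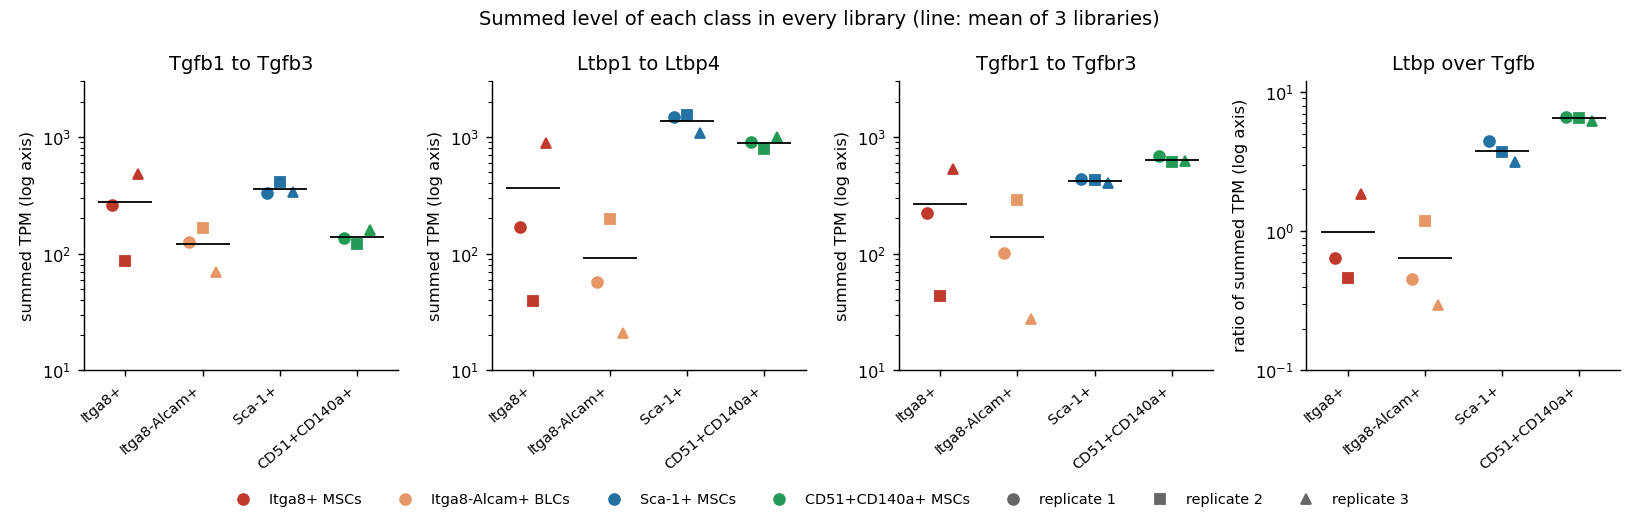
Summed TPM of the ligands, binding proteins and receptors, and the ratio of binding protein to ligand TPM (log axes), in the 12 libraries with the mean of each population. With Ltbp2 counted and without correction for the length trend, the ratio is above 3 in every Sca-1+ and CD51+CD140a+ library and below 2 in every Itga8+ and Itga8-Alcam+ library.

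Levels of the binding proteins and receptors followed the order of the long-gene measure within each Alcam+ population. All 7 of these genes were highest in Itga8+ replicate 3, then replicate 1, then replicate 2, and highest in Itga8-Alcam+ replicate 2, then replicate 1, then replicate 3, which is also the order of the cartilage marker sums. Among the ligands Tgfb2 and Tgfb3 had this order in Itga8+ MSCs, and Tgfb3 had it in Itga8-Alcam+ BLCs, where replicates 1 and 3 were nearly level, while Tgfb1 had it in neither. The summed exons of the members measure 3383 bases (Tgfb3) to 10691 bases (Ltbp1). In 2 fits added after the data were seen, the trend of counts with gene length was removed from each library or the lowest library of each Alcam+ population was left out. With the trend removed, the 25 called differences were all called again, Tgfb3 in Itga8+ MSCs over CD51+CD140a+ MSCs at an edgeR FDR of 0.0954, and 24 were called without Itga8+ replicate 2 and Itga8-Alcam+ replicate 3 together, the exception being Ltbp2 in Itga8+ MSCs against CD51+CD140a+ MSCs (log2 -1.72, edgeR FDR = 0.115). The part of cartilage, myeloid or erythroid RNA in these levels was not tested.

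**Figure D5:**
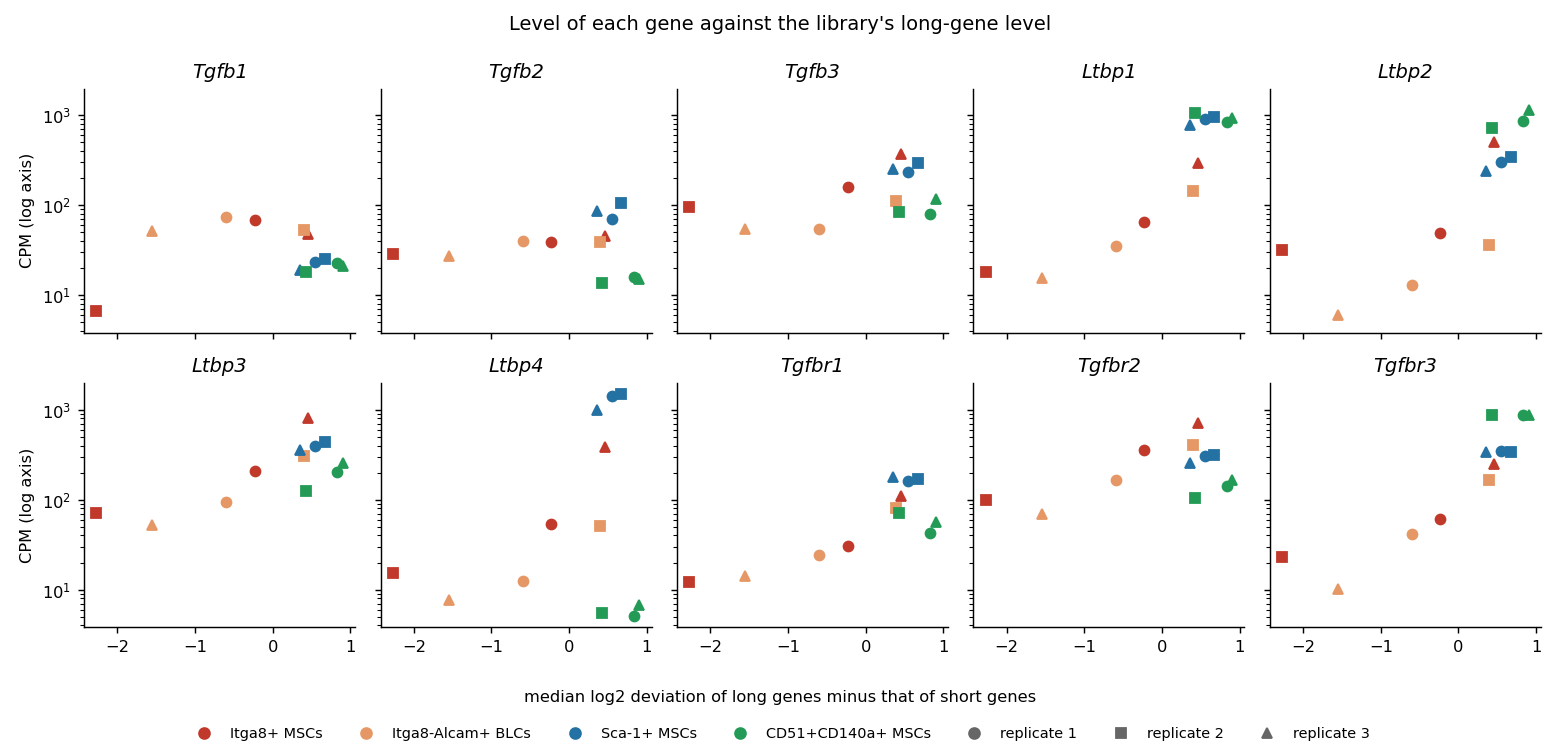
Level of each gene in CPM (log axis) against the library's long-gene measure, the median log2 deviation of long genes minus that of short genes, in the 12 libraries. Itga8+ replicate 2 (-2.27) and Itga8-Alcam+ replicate 3 (-1.55) lie at the left and have the lowest levels of the 7 binding protein and receptor genes within their populations.

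Around the 10 members, 21 genes of latency, activation and storage were read. Itga8, on which 2 populations were sorted, was at 35.2 to 199 CPM in Itga8+ MSCs, 0.398 to 4.17 CPM in Itga8-Alcam+ BLCs, 1.87 to 2.88 CPM in Sca-1+ MSCs and 53.1 to 82.9 CPM in CD51+CD140a+ MSCs, and this gene was not read as a finding. Its partner Itgb1 was at 335 to 1216 CPM in all libraries and Itgav (CD51) at 12.7 to 194.5 CPM, and neither was called in any comparison. Itgb8, the partner of integrin alpha v in TGF-beta activation, was at 4.54 to 5.53 CPM in Sca-1+ MSCs, 0.364 to 5.26 CPM in Itga8+ MSCs and 1.10 to 5.33 CPM in Itga8-Alcam+ BLCs, and CD51+CD140a+ libraries had at most 1 count (0.0322 CPM). The 3 genes of the list with the smallest FDR were Mmp2, a matrix protease, Fn1, which encodes the fibronectin that anchors latent complexes, and Pcsk6, a proprotein convertase. All 3 were lowest in CD51+CD140a+ MSCs, with Mmp2 at 86.6 ± 18.2 CPM (SD, n = 3) against 2496 ± 1285 in Itga8+ MSCs (28.8-fold, edgeR FDR = 1.0e-05), Fn1 at 45.4 ± 20.6 CPM against 16640 ± 3995 in Sca-1+ MSCs (366.5-fold, edgeR FDR = 0.00046) and Pcsk6 at 11.2 ± 2.18 CPM against 436 ± 347 in Itga8-Alcam+ BLCs (38.9-fold, edgeR FDR = 0.00068). Of the 21, 2 were called between Itga8+ MSCs and Itga8-Alcam+ BLCs (Itga8 higher and Bmp1 lower in Itga8+ MSCs), 8 between Itga8+ and Sca-1+ MSCs (4 higher and 4 lower in Itga8+ MSCs) and 6 between Itga8+ and CD51+CD140a+ MSCs (5 higher and 1 lower). The other 3 comparisons gave 8 for Itga8-Alcam+ BLCs over Sca-1+ MSCs (3 higher and 5 lower), 7 over CD51+CD140a+ MSCs (5 higher and 2 lower) and 10 for Sca-1+ over CD51+CD140a+ MSCs (7 higher and 3 lower). Itga8 is counted in the 2 and in the 8 of Itga8+ over Sca-1+ MSCs, calls that the sort itself selected for. Without it, only Bmp1 remains between both Alcam+ populations. Itga8 is also counted in the 7 and the 10, lower each time. The shares of all genes called in these 6 comparisons, in the same order, were 3.82%, 21.7%, 35.6%, 26.4%, 35.3% and 20.5%, and the 6 and 7 genes called over CD51+CD140a+ MSCs in the Alcam+ populations were no larger a share of the list than that.

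Of 11 genes for coreceptors, decoys and matrix proteins that bind TGF-beta, 2 were called between both Alcam+ populations (Aspn higher and Bambi lower in Itga8+ MSCs). Dcn and Acvrl1, 2 genes, were lower in Itga8+ than in Sca-1+ libraries, and 7 were called over CD51+CD140a+ MSCs (6 higher, and Acvrl1 lower, in Itga8+ MSCs). Fmod (fibromodulin) was at 5536 to 12458 CPM in Itga8+ MSCs, 3406 to 5794 CPM in Itga8-Alcam+ BLCs, 4221 to 6375 CPM in Sca-1+ MSCs and 59.7 to 86.5 CPM in CD51+CD140a+ MSCs, and Itga8+ MSCs exceeded the last 127-fold (edgeR FDR = 1.2e-06). Aspn (asporin, a small matrix proteoglycan that binds TGF-beta) was at 319 ± 206 CPM (SD, n = 3) in Itga8+ MSCs and 9.09 ± 2.99 CPM in Itga8-Alcam+ BLCs, a 35.1-fold difference (edgeR FDR = 0.0018), at 589 ± 77.2 CPM in Sca-1+ MSCs and at 7.10 ± 5.57 CPM in CD51+CD140a+ MSCs. Acvrl1 (ALK1, a type I receptor best known in endothelium) was at 1.88 to 5.37 CPM in both Alcam+ populations, 29.1 to 36.3 CPM in Sca-1+ MSCs and 33.7 to 43.5 CPM in CD51+CD140a+ MSCs, and was 11.3-fold lower in Itga8+ than in Sca-1+ MSCs (edgeR FDR = 0.00017). Itga8-Alcam+ BLCs gave 7 calls against Sca-1+ MSCs (2 higher and 5 lower) and 7 against CD51+CD140a+ MSCs (5 higher and 2 lower), and Sca-1+ against CD51+CD140a+ MSCs 7 (6 higher, and Vasn lower). Between both Alcam+ populations 3.82% of all genes were called, and in the other comparisons 20.5% to 35.6%.

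Of 18 signal transducers and inhibitors, 2 to 6 were called per comparison, where 3.82% (between both Alcam+ populations) or 20.5% to 35.6% (the other comparisons) of all genes were called. Those called between Itga8+ MSCs and Itga8-Alcam+ BLCs were lower in Itga8+ MSCs, among them Smad6, an inhibitory Smad, at 2.03 to 10.1 CPM against 18.6 to 31.0 CPM (3.98-fold, edgeR FDR = 0.0487). Smad6 was at 15.4 to 19.6 CPM in Sca-1+ MSCs and 48.7 to 76.8 CPM in CD51+CD140a+ MSCs. Tgif2, a repressor that binds Smads, was 8.94-fold lower in Sca-1+ than in CD51+CD140a+ MSCs (4.40 ± 1.25 against 39.4 ± 9.88 CPM (SD, n = 3), edgeR FDR = 0.0015). Dab2, an adaptor linking receptors to Smads, was 3.37-fold lower in Itga8+ MSCs (114 ± 49.6 CPM) than in Sca-1+ MSCs (383 ± 28.0 CPM, edgeR FDR = 0.0113). The 2 called between both Alcam+ populations were Smad6 and Tgif1. In Itga8+ over Sca-1+ MSCs 5 were called (Tgif2 higher, and Smurf1, Smad3, Smad6 and Dab2 lower), and in Itga8+ over CD51+CD140a+ MSCs 4 (Pmepa1 higher, and Tgif2, Smurf1 and Smad6 lower). Itga8-Alcam+ BLCs over Sca-1+ MSCs gave 3 (Ski, Smurf1 and Dab2, all lower) and over CD51+CD140a+ MSCs 6 (2 higher and 4 lower). In Sca-1+ over CD51+CD140a+ MSCs 5 were called (Pmepa1, Smad3 and Dab2 higher, and Tgif2 and Smad6 lower). The 4 and 6 called over CD51+CD140a+ MSCs in the Alcam+ populations and the 3 called in Itga8-Alcam+ BLCs over Sca-1+ MSCs were smaller shares of the list than the shares of all genes (35.6%, 35.3% and 26.4%). Genes named only beside these list counts were chosen after their values were seen.

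Of 20 textbook target genes of TGF-beta signalling, 16 were called in Itga8+ MSCs against CD51+CD140a+ MSCs (14 higher and 2 lower), 11 against Sca-1+ MSCs (7 higher and 4 lower) and 6 against Itga8-Alcam+ BLCs (4 higher and 2 lower), where 35.6%, 21.7% and 3.82% of all genes were called. The median log2 fold change of the 20 in these comparisons was 1.66, 0.52 and 0.44, against 0.18, 0.16 and 0.08 over all genes. Scx, a tendon transcription factor, was at 131 to 442 CPM in Itga8+ MSCs, 10.8 to 22.7 CPM in Itga8-Alcam+ BLCs and 24.0 to 45.4 CPM in Sca-1+ MSCs, with at most 1 count in a CD51+CD140a+ library, and Itga8+ MSCs were 17.2-fold above Itga8-Alcam+ BLCs (edgeR FDR = 0.0016). Postn (periostin, a matrix protein) was at 1251 to 5669 CPM in Itga8+ MSCs and 61.8 to 155 CPM in Itga8-Alcam+ BLCs (31.4-fold, edgeR FDR = 0.0013), and at 839 to 1070 CPM in Sca-1+ and 26.3 to 68.2 CPM in CD51+CD140a+ MSCs. Nox4, an NADPH oxidase, was at 76.4 to 87.2 CPM in Sca-1+ MSCs, 11.9 to 30.7 CPM in Itga8+ MSCs, 3.06 to 3.69 CPM in CD51+CD140a+ MSCs and 0.548 to 1.02 CPM in Itga8-Alcam+ BLCs, and was called in all 6 comparisons. Itga8-Alcam+ BLCs gave 10 calls against Sca-1+ MSCs (6 higher and 4 lower) and 12 against CD51+CD140a+ MSCs (10 higher and 2 lower), and Sca-1+ against CD51+CD140a+ MSCs 11 (9 higher and 2 lower), where 26.4%, 35.3% and 20.5% of all genes were called. In these comparisons the median of the 20 was 0.16, 1.22 and 1.01, against 0.12, 0.09 and -0.0025 over all genes. The summed tendon markers, which include Scx and Fmod, were at 12892 to 23543 CPM in Itga8+ MSCs, 3787 to 6394 CPM in Itga8-Alcam+ BLCs, 6264 to 9350 CPM in Sca-1+ MSCs and 83.4 to 113 CPM in CD51+CD140a+ MSCs, and their part in these counts was not tested.

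The genes whose log2 CPM over the 12 libraries was most like that of a ligand or receptor were read among 11016 genes with a mean of at least 5 CPM, as a description with no test. The points share their populations and the long-gene trend. Nearest to Tgfb2 were Nfasc (Pearson r = 0.9902), Bmpr1b (r = 0.981) and Camkk1 (r = 0.977), and nearest to Tgfb1 were Noct (r = 0.968), Serpinh1 (r = 0.948) and Map3k10 (r = 0.941). Nearest to Tgfb3 was Gm37804 (r = 0.983), which overlaps Tgfb3 exons on the opposite strand, followed by Abcb1b (r = 0.969) and Wasf1 (r = 0.958). For the receptors these were Slc45a4, Zfp512b and Fam53b with Tgfbr3 (r = 0.987, 0.985 and 0.983), Eif5a2, Uhrf1bp1l and Esyt2 with Tgfbr1 (r = 0.978, 0.972 and 0.970) and Pde3b, Arap1 and 1810008B01Rik with Tgfbr2 (r = 0.963, 0.957 and 0.957). Among the members themselves, the highest correlations were Ltbp1 with Tgfbr3 (r = 0.964), Ltbp2 with Tgfbr3 (r = 0.942), Ltbp1 with Ltbp2 (r = 0.919) and Tgfb2 with Ltbp4 (r = 0.916), and the lowest was Tgfb1 with Ltbp2 (r = -0.398).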

How the data were processed

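The authors made gene counts from reads of SMART-Seq v4 and Nextera XT libraries, which do not mark strand. The submitters' processing notes name Trimmomatic 0.38, HISAT2 2.1.0, SAMtools 1.9, featureCounts 1.6.3, FastQC 0.11.7 and mm10, whereas the study's methods name TopHat and Bowtie2, so the aligner is uncertain. The strand setting and annotation release are not given in the sources used here. The deposited unit is the raw count per Ensembl gene, 1 file per library. Symbols, exon lengths and coding sequences were taken from GENCODE M21 on GRCm38 (259 identifiers had no symbol).

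Members and lists were chosen with earlier results of these data known. edgeR 4.0.16 (TMM, quasi-likelihood, 12 libraries in 1 model, 0.5 CPM in at least 1 library) gave p-values adjusted over 18648 genes, and a difference was called at an FDR under 0.1 and a fold above 2, the study's thresholds. CPM used TMM-scaled totals. TPM divided counts by the summed exon length of the gene. Shares were compared by exact two-sided permutation. Named beside the members were Itga8, Itgav, Itgb1, Itgb8 and, of each of 4 lists, the 3 genes with the smallest FDR among those called, and for ligands and receptors the 3 genes of highest r. Alternatives used DESeq2 1.42.0, limma 3.58.1, other scalings, filters and thresholds, and left-out libraries. The test was checked on simulated counts with 200 changed genes. Apart from these genes the simulated libraries had a common mean profile and no long-gene trend, so this check does not cover that trend. Libraries of the same replicate number had correlations of their deviations from the population means of -0.58 to 0.20. These libraries also differ in the long-gene measure, so the values cannot show whether a shared number means shared mice or a shared sort. R 4.3.3 and Python 3.11.15 were used.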

Additional observations from a re-analysis of the deposited data

How the results depend on the processing

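The counts of called members moved more than 1.5-fold in these cases. For Itga8+ MSCs over Itga8-Alcam+ BLCs, where 1 member was called (3 at an unadjusted p under 0.05), DESeq2 called 3 (6.75% of all genes, against 3.82%), limma-trend 0 (4.99%), library totals alone 2 (4.33%), the 6 libraries alone 0 (1.59%), an FDR of 0.05 0 (2.49%), and the fit without Itga8+ replicate 2 and Itga8-Alcam+ replicate 3, added after the data were seen, 2 (3.62%). For Itga8+ over Sca-1+ MSCs (3), limma-trend called 5 (24.7% of all genes, against 21.7%) and an FDR of 0.05 1 (14.5%). For Itga8-Alcam+ BLCs over CD51+CD140a+ MSCs (5), library totals alone called 3 (37.7%, against 35.3%). For Sca-1+ over CD51+CD140a+ MSCs (3), the 6 libraries alone called 8 (27.1%, against 20.5%) and the fit without the 2 lowest Alcam+ libraries 7 (24.9%). The cause was not tested, except that fits of 6 libraries use their own spread. Leaving out 1 library at a time gave 0 to 3, 1 to 7, 4 to 7, 5 to 8, 4 to 6 and 2 to 5 calls in the 6 comparisons in the order of the report. Of all genes, 2.33% to 4.83%, 12.8% to 31.6%, 27.3% to 43%, 19% to 32.2%, 27.8% to 40.3% and 16.1% to 23.8% were called in these fits. Share contrasts without overlap were then 9 to 12 of 18, 23 to 24 of 24 and 16 to 17 of 18 for ligands, binding proteins and receptors. As levels in CPM in all 12 libraries, 14.2% to 49.8% of all genes had no overlap, by comparison. What replicates of the same number share is not stated in the sources used here. With the replicate block the counts of called members in the 6 comparisons were 0, 2, 5, 6, 5 and 3. Of all genes, 2.32%, 15.4%, 29.2%, 22.4%, 30.9% and 17.4% were then called.

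Directions turned only for differences that were not called. Leaving out 1 library at a time gave these ranges of log2 fold changes. In Itga8+ MSCs over Itga8-Alcam+ BLCs they were -0.07 to 0.27 for Tgfb2, -0.61 to 2.35 for Ltbp1, -0.10 to 2.33 for Ltbp3, -0.88 to 1.41 for Tgfbr1 and -0.78 to 2.11 for Tgfbr3. In Itga8+ over Sca-1+ MSCs they were -1.06 to 0.02 for Tgfb3, -1.53 to 0.35 for Ltbp3 and -0.39 to 0.84 for Tgfbr2. In Itga8+ over CD51+CD140a+ MSCs they were -0.47 to 1.41 for Ltbp3 and -1.39 to 0.33 for Tgfbr1. In Itga8-Alcam+ BLCs over CD51+CD140a+ MSCs they were -1.41 to 0.04 for Ltbp3 and -0.23 to 1.05 for Tgfbr2, and in Sca-1+ over CD51+CD140a+ MSCs -0.17 to 0.00 for Ltbp1. Without both lowest libraries, Tgfb3 over Sca-1+ MSCs was 0.06 and Ltbp3 0.39 in Itga8+ MSCs, and over CD51+CD140a+ MSCs Tgfbr1 was 0.33 in Itga8+ MSCs and Ltbp3 0.04 in Itga8-Alcam+ BLCs. With the length trend removed, also added after the data were seen, Ltbp3 in Itga8+ over Sca-1+ MSCs was 0.10, and on library totals alone Tgfb1 in Sca-1+ over CD51+CD140a+ MSCs was -0.01. Of 1314 member fold changes under alternatives with an adjusted p-value (DESeq2 gave none for Tgfbr3), 1168 kept their direction and side of the threshold.

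Over all genes, Itga8+ MSCs over Itga8-Alcam+ BLCs gave 712 calls with edgeR, 1203 with DESeq2, 276 with the 6 libraries alone, 433 with the replicate block and 433 to 886 without each library in turn, the fewest without Itga8-Alcam+ replicate 3. With library totals alone, the all-gene median (log2) went from 0.09 to -0.237 in Itga8-Alcam+ BLCs over CD51+CD140a+ MSCs. Shares of CPM in place of TPM moved 15 of 60 share differences by more than 1 SD, and coding transcript length (added after the data were seen) 14. The sign turned in 3 of the 60 in each case, from differences of at most 0.982 points, and the widest turn was the Tgfb2 share in Itga8-Alcam+ BLCs minus Sca-1+ MSCs, from 0.164 points to -2.25 (CPM) and -4.96 (coding transcript length). Each member had at least 101 counts in every library.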
